A study of Mus musculus with 4 samples.

Results

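The genes described here are 10 genes that mark blood vessel endothelium: Pecam1, Cdh5, Cldn5 and Esam (cell junctions and adhesion), Kdr and Flt1 (receptors for vascular endothelial growth factor, VEGF), Tek and Tie1 (angiopoietin receptors), Emcn (a surface sialomucin) and Egfl7 (a secreted matrix protein). They were taken by name from a table of RNA-seq read counts with 24062 genes, and all 10 were found and passed the filter on low counts. The RNA came from retinas of mouse embryos at embryonic stage E13.5 on a C57BL/6 129 mixed background. One group was wildtype and the other Nrf1 f/f;Six3-Cre, labelled Nrf1-CKO, with 2 libraries in each. Nrf1 f/f mice carry a floxed allele from which Cre removes exon 4 of Nrf1, a transcription activator of nuclear genes for mitochondrial function. Six3-Cre acts in the proliferating progenitors of the retina, beginning centrally. The wildtype group was not described as carrying either Six3-Cre or the floxed allele, so the effect of the deletion cannot be told apart from that of the transgene. Each library was made from retinas pooled from several littermates, and p-values therefore measure the spread between pools.

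Endothelial cells line blood vessels and hold together through VE-cadherin, claudins and immunoglobulin-like adhesion proteins. VEGF made by neural tissue acts through Kdr to drive vessel growth, Flt1 binds VEGF tightly and limits what reaches Kdr, and angiopoietins act through Tek, with Tie1 as its partner, to stabilise vessels. At this age the mouse retina itself has no vessel network of its own. The hyaloid vessels lie between lens and retina and the choroidal vessels lie outside the pigment epithelium. Kdr is expressed by retinal progenitors as well as by endothelium, so its reads can come from either.

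The 4 libraries held between 74577660 and 85933945 reads on genes, of which the 10 genes took between 21905 and 27457. Nrf1 itself stood at 103 and 105 CPM (reads scaled to library size) in wildtype and at 103 and 100.1 CPM in the Nrf1 mutant, a log2 fold change of -0.03 (SE 0.07, adjusted p = 0.794). Counts over the whole gene take in the exons that Cre leaves, so this value checks neither the deletion nor the labels. Markers of other tissues next to the retina also differed between the genotypes. The summed level of 12 lens markers was 154 and 424 CPM in wildtype and 8893 and 3636 CPM in the mutant. The 15 macrophage and microglia markers summed to between 94.3 and 106 CPM in wildtype and between 310 and 380 CPM in the mutant, and the 9 pigment epithelium markers to between 259 and 351 CPM and between 649 and 679 CPM. Their part in the results below was not tested. In these bulk libraries, a larger share of endothelial cells and more RNA per endothelial cell cannot be told apart.

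Promoter sequence was available in RefSeq (GRCm38.p6) for 7 of the 10 genes, and 4 of these are shown because they carry the contrasts described below. Kdr and Flt1 are the receptor pair that moved in opposite directions, Tek had the largest rise among the 10 genes, and Cldn5 was the gene with no detectable change. Each run gives the 250 bases before the transcription start, 5′ to 3′ on the gene's own strand. Capitals mark GGAAG or its reverse complement CTTCC, a form of the motif bound by ETS factors. The shorter GGAA was not searched for, and on either strand it also occurs unmarked in the Kdr, Flt1 and Tek windows. The windows are chr5:75978456-75978705 on the minus strand for Kdr, chr5:147726012-147726261 on the minus strand for Flt1, chr4:94739039-94739288 on the plus strand for Tek and chr16:18776597-18776846 on the plus strand for Cldn5.
Kdr: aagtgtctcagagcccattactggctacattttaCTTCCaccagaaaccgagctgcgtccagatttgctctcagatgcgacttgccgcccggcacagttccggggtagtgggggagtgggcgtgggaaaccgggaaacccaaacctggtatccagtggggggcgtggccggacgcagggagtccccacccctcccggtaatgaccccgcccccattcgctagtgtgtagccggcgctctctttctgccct
Flt1: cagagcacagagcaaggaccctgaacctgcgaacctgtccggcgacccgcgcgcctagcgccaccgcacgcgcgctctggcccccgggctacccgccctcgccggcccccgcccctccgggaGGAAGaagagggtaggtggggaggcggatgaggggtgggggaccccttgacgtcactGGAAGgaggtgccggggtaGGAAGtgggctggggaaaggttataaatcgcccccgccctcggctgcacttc
Tek: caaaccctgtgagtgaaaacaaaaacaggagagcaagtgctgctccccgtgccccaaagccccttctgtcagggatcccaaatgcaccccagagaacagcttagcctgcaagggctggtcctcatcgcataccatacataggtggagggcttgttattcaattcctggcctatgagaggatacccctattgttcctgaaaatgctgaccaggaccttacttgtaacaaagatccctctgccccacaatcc
Cldn5: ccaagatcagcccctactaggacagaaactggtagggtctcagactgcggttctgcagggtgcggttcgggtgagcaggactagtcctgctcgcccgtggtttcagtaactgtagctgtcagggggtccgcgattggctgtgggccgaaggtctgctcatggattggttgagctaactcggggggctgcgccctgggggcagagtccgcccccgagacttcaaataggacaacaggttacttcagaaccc
GGAAG was present once in the Kdr window, 3 times in the Flt1, 6 in the Tie1 and 2 in the Emcn window. GGAAG was absent from the Tek and Cldn5 windows. Over the 9 windows of the 7 genes, which include 3 alternative starts of Egfl7, it was found in 6, and it was found in 64.1% of all 32851 promoters, on either strand. Neither GCGCATG nor CGCATGCG, parts of the palindrome bound by Nrf1, was found in any of the 9 windows, against 3.24% and 1.55% of all promoters. The longer ETS form ACCGGAAG, which overlaps GGAAG, was in none of them, against 1.72% of all promoters. TATAAA was found in the Flt1 window alone, against 12.4% of all promoters. The GC content was 70.4% for Flt1, 61.6% for Kdr, 59.6% for Cldn5 and 51.2% for Tek, with a median of 52.4% over all promoters.

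Most of the endothelial genes were higher in the Nrf1-mutant retinas. With the thresholds of the study, a change of at least 1.4-fold and an adjusted p of at most 0.2 (edgeR's quasi-likelihood test, Benjamini-Hochberg adjustment over the 15762 genes tested), 8 of the 10 genes were called higher, Kdr was called lower, and Cldn5 was not called. Over all genes tested, 12.8% were called higher and 8.04% were called lower. The median log2 fold change was 1.10 for the 10 genes and 0.00073 for all genes tested. For the same 8 genes both mutant libraries stood above both wildtype libraries, and for Kdr both stood below. Such a lack of overlap was common: 30.9% of all genes had both mutant libraries above both wildtype libraries and 31.6% had both below.

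**Figure D1:**
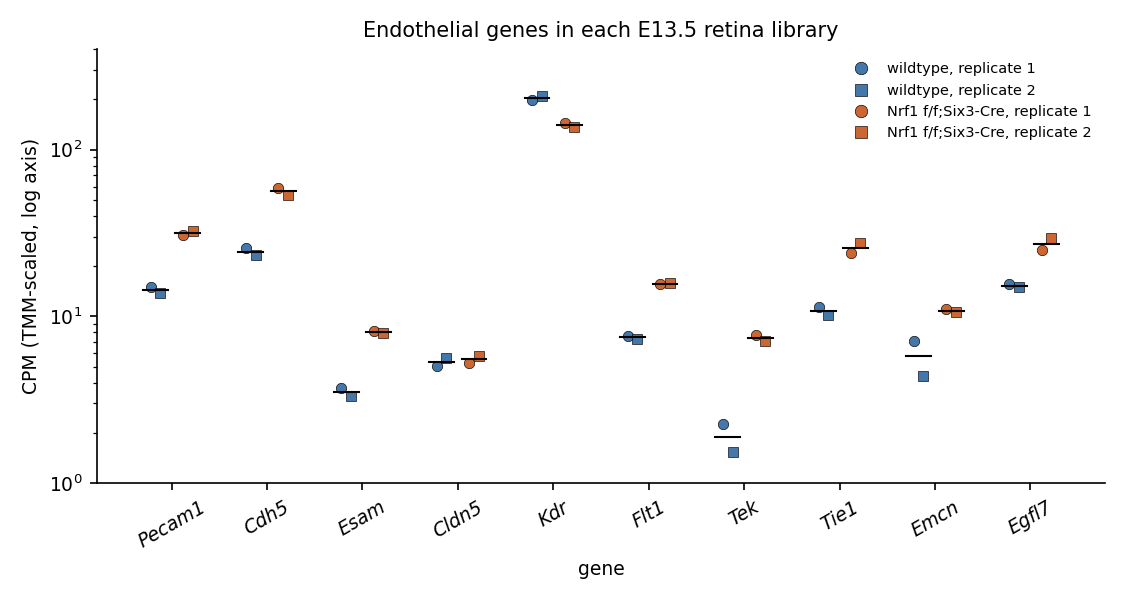
CPM of the 10 endothelial genes (log axis) in each of the 4 libraries, with circles for replicate 1, squares for replicate 2 and a bar for the mean of the genotype. The mutant points lie above the wildtype points for 8 genes, below them for Kdr, and among them for Cldn5.

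The VEGF receptors parted. Kdr (VEGFR2, chr5:75932827-75978458, minus strand) encodes the main signalling receptor for VEGF. It stood at 200 and 211 CPM in the wildtype retinas and at 144 and 137 CPM in the mutant retinas. The mutant libraries were lower than both wildtype libraries, by more than either genotype's spread. The log2 fold change was -0.55 (SE 0.08, 95% interval -0.72 to -0.37, adjusted p = 0.00125), or 0.685 of the wildtype level. The interval reached inside 1.4-fold, and a test of whether the change exceeded 1.4-fold (glmTreat) did not call Kdr (adjusted p = 0.507). Flt1 (VEGFR1, chr5:147561604-147726011, minus strand), which also gives a soluble form that binds VEGF, went the other way. It stood at 7.67 and 7.33 CPM in wildtype and at 15.6 and 15.7 CPM in the mutant, so that replicates of a genotype lay close together and the genotypes far apart. Its log2 fold change was 1.06 (SE 0.12, 95% interval 0.78 to 1.34, adjusted p = 0.000461). The log2 ratio of Flt1 to Kdr within a library was -4.70 and -4.85 in wildtype and -3.20 and -3.13 in the mutant, a difference of 1.61 between the means.

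Both angiopoietin receptors rose. Tek (TIE2, chr4:94739289-94874976, plus strand) is the receptor that binds angiopoietins. It was covered by 198 and 114 reads in wildtype against 640 and 592 in the mutant, or 2.26 and 1.54 CPM against 7.70 and 7.16 CPM. Wildtype replicate 1 was the higher of the wildtype pair, and even so stood far below both mutant libraries. The log2 fold change of 1.96 (SE 0.23, 95% interval 1.45 to 2.48, adjusted p = 0.000464) ranged from 1.72 to 2.28 when 1 library was left out. Tie1 (chr4:118471191-118490061, minus strand), the partner of Tek that does not itself bind angiopoietins tightly, was at 11.4 and 10.2 CPM in wildtype and at 24.1 and 27.5 CPM in the mutant. The genotypes did not overlap, and the log2 fold change was 1.26 (SE 0.12, adjusted p = 0.000226). The log2 ratio of Tek to Tie1 was -2.33 and -2.73 in wildtype and -1.65 and -1.94 in the mutant, which do not overlap. This difference was not tested, and it was absent from the deposited log2 values given below, where Tek and Tie1 differed between genotypes by 0.92 and 0.93.

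Of the 4 junction and adhesion genes, 3 rose by similar amounts and Cldn5 was not called. Pecam1 (CD31, chr11:106654217-106750628, minus strand) encodes an adhesion molecule of endothelial cells, platelets and some leukocytes. It was at 15.0 and 13.8 CPM in wildtype and at 30.6 and 32.4 CPM in the mutant, a log2 fold change of 1.13 (SE 0.10, adjusted p = 0.000197). Cdh5 (VE-cadherin, chr8:104101625-104144511, plus strand) encodes the cadherin of endothelial adherens junctions. It was at 25.6 and 23.2 CPM in wildtype and at 59.2 and 53.5 CPM in the mutant. Its log2 fold change was 1.21 (SE 0.09, adjusted p = 0.000104), with the mutant libraries clear of the wildtype pair. Esam (chr9:37528078-37538319, plus strand), an adhesion molecule of endothelial tight junctions and platelets, was at 3.72 and 3.33 CPM in wildtype and at 8.15 and 7.89 CPM in the mutant. The rise of 1.18 on the log2 scale (SE 0.17, adjusted p = 0.00128) again exceeded the spread in both genotypes. An exon of Cdh5 overlaps the span of the antisense gene Gm29682. Whether exons of the pair overlap was not checked and the strand setting of the counting was not given, so whether they share reads is not known.

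Cldn5 (claudin-5, chr16:18776847-18778262, plus strand, 1 exon) encodes the principal claudin of the tight junctions that seal brain and retinal vessels. It had 443 and 416 reads in wildtype and 439 and 478 in the mutant, or 5.06 and 5.61 CPM against 5.28 and 5.78 CPM. The genotypes overlapped. The log2 fold change was 0.05 (SE 0.17, adjusted p = 0.862), with a 95% interval of -0.33 to 0.44 that contains a change of either sign.

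Emcn and Egfl7 both rose. Their values were smaller than those of the 3 junction genes that were called, a difference that was not tested. Emcn (endomucin, chr3:137341067-137432185, plus strand) encodes a mucin-like protein of capillary and venous endothelium. It was at 7.10 and 4.38 CPM in wildtype and at 11.1 and 10.6 CPM in the mutant. The wildtype pair was the more spread, with a mean of 5.74 ± 1.92 (SD, n = 2), and its higher library still lay below both mutant libraries. The log2 fold change was 0.91 (SE 0.21, adjusted p = 0.0157), with a lower 95% bound of 0.42 that lay within the interval of Cldn5. It ranged from 0.61 without wildtype replicate 2 to 1.31 without wildtype replicate 1. Egfl7 (chr2:26580014-26593120, plus strand), a secreted protein of the vessel matrix whose gene also holds the endothelial microRNA gene Mir126a, was at 15.5 and 15.1 CPM in wildtype and at 25.0 and 29.3 CPM in the mutant. Its log2 fold change was 0.83 (SE 0.11, adjusted p = 0.00112). Exons of Egfl7 overlap the span of Gm20532 on the same strand and that of Agpat2 on the other. Whether they overlap exons of those genes was not checked, so whether reads are shared is not known.

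**Figure D2:**
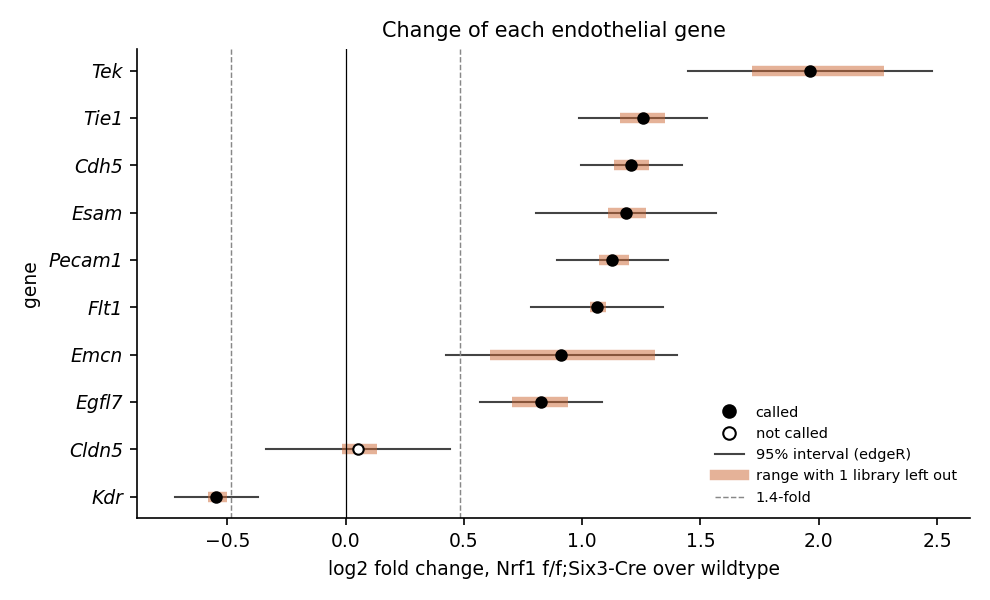
Log2 fold change (Nrf1 f/f;Six3-Cre over wildtype) of each endothelial gene, with its 95% interval as a thin line, the range over fits with 1 library left out as a thick bar, and dashed lines at 1.4-fold in both directions. Tek stands at 1.96, 7 genes lie between 0.83 and 1.26, Cldn5 lies at 0.05 and Kdr at -0.55.

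The normalised log2 values that were deposited beside the counts gave the same directions with smaller differences for the rarer genes. Between the genotype means they differed by 1.03 for Cdh5, 0.93 for Tie1, 0.92 for Tek, 0.88 for Pecam1, 0.71 for Flt1, 0.64 for Egfl7, 0.63 for Esam and 0.57 for Emcn. For Cldn5 the difference was 0.03 and for Kdr it was -0.52. On that scale Tek no longer stood apart from Cdh5 and Tie1. The offset or shrinkage behind these values was not given in the sources used here.

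Levels were compared between genes only per length, as RPKM, which divides the CPM by the length of the gene's merged exons in kilobases. In wildtype retinas Kdr was the most abundant of the 10 at 22.7 RPKM. Cdh5 followed at 5.80, Egfl7 at 4.27 and Cldn5 at 3.77 RPKM, and the libraries of each of these genes were clear of the next in order. Pecam1 at 2.31 and Tie1 at 2.19 RPKM overlapped and could not be ordered, and neither could Esam at 1.23 and Emcn at 1.06 RPKM. Flt1 at 0.556 and Tek at 0.403 RPKM were the scarcest. In the mutant retinas Kdr was still first at 15.6 RPKM, followed by Cdh5 at 13.4 RPKM. Tie1 at 5.25 and Pecam1 at 5.06 RPKM, which overlapped, now stood above Cldn5 at 3.91 RPKM, which went from the fourth to the sixth place. Tek stood at 1.58 RPKM and Flt1 at 1.16 RPKM. Several of these orders rest on the gene model. With the longest transcript as the length, Egfl7 stood above Cdh5 and Pecam1 above Cldn5 in wildtype. In the mutant that length gave 23.7 RPKM for Kdr, 14.6 for Egfl7 and 14.1 for Cdh5, and it put Flt1 at 2.27 RPKM above Tek at 1.596 RPKM.

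Summed over the 10 genes, the CPM was 293 and 295 in wildtype and 330.5 and 327 in the mutant, 1.12-fold higher between the means and beyond the spread of either genotype. That sum was mostly Kdr, which made up 68.1% and 71.4% of it in wildtype and 43.5% and 42.0% in the mutant. Without Kdr, the other 9 genes summed to 93.3 and 84.4 CPM in wildtype and to 187 and 190 CPM in the mutant. The mutant mean was 2.12-fold the wildtype mean, a log2 ratio of 1.08 that ranged from 1.01 to 1.16 with 1 library left out. By role and without Kdr, the angiopoietin receptors stood at 2.62-fold, the junction genes at 2.13-fold and the pair of Emcn and Egfl7 at 1.80-fold.

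To describe whether the genes kept their proportions, each was set against the sum of the other members within a library, with Kdr left out of that sum. The log2 ratio differed between the genotype means by 0.05 for Pecam1, 0.11 for Esam, 0.17 for Cdh5 and 0.20 for Tie1, and by -0.02 for Flt1 and -0.14 for Emcn. Tek, Cldn5 and Kdr differed by more. Tek gained 0.94, from -5.33 and -5.75 in wildtype to -4.54 and -4.67 in the mutant. Cldn5 fell by 1.08, from -4.13 and -3.81 to -5.10 and -4.99. Kdr fell by 1.63, from 1.10 and 1.32 to -0.38 and -0.47. Egfl7 lost less, at -0.31. The genotypes overlapped for Flt1 and Emcn and for none of the other 8 genes, so a lack of overlap does not set these 4 apart. These values depend on leaving Kdr out of the sum. Against the sum of all other 9 members, Kdr included, the ratio differed by -0.11 for Cldn5, whose libraries then overlapped, by 1.04 for Pecam1, 1.19 for Cdh5 and 1.86 for Tek. No test was run on these ratios, which share their denominators.

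**Figure D3:**
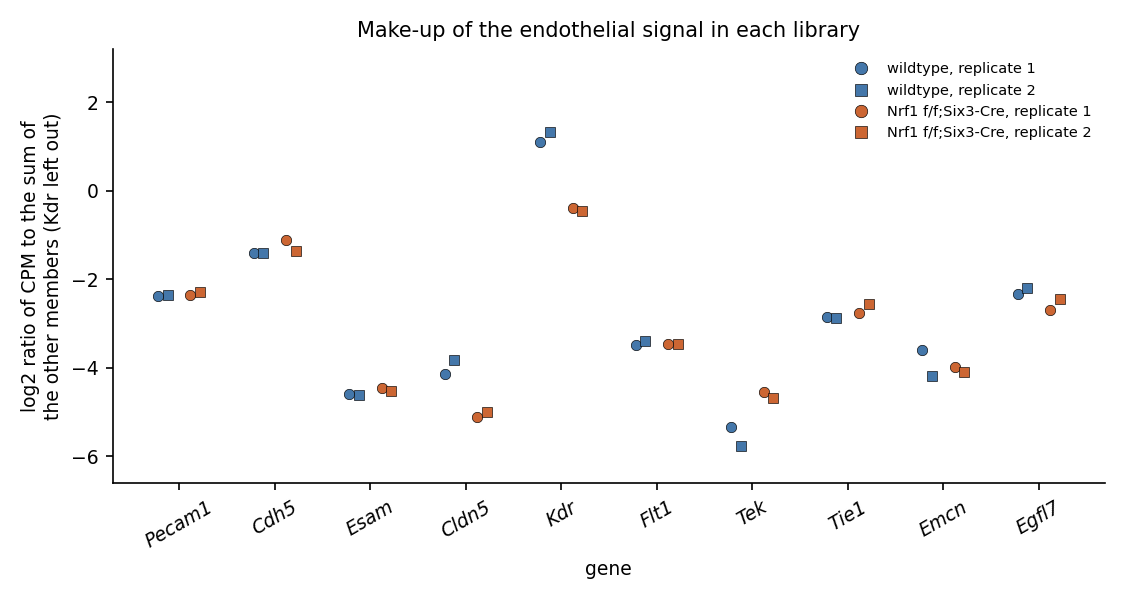
Log2 ratio of the CPM of each endothelial gene to the summed CPM of the other members, Kdr left out of the sum, in each library (circles replicate 1, squares replicate 2). Kdr and Cldn5 lie lower in the mutant libraries, Tek lies higher, and Pecam1, Esam and Flt1 differ by at most 0.11 between the genotype means.

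Among the ligands and other receptors of the VEGF family, 7 of 8 genes in the table could be tested, of which 3 were called higher, 1 was called lower and 3 were not called, with a median log2 fold change of 0.03. Vegfa, the main ligand of Kdr and Flt1, was at 86.3 and 93.4 CPM in wildtype and at 88.7 and 84.1 CPM in the mutant, a log2 fold change of -0.06 (SE 0.08, adjusted p = 0.67). The genotypes overlapped for Vegfa, and also for Vegfb (0.03, adjusted p = 0.888) and Pgf (-0.01, adjusted p = 0.993). Vegfc, a ligand of Flt4 and Kdr, rose from 4.10 and 3.74 CPM to 6.43 and 5.64 CPM (log2 fold change 0.62, adjusted p = 0.0371). Its receptor Flt4 (VEGFR3) rose from 6.50 and 5.65 CPM to 16.0 and 14.03 CPM (1.31, adjusted p = 0.000364). Figf (Vegfd) had 3 and 6 reads in wildtype and 28 and 1 in the mutant and was not tested.

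The neuropilins, which bind VEGF and semaphorins beside the receptors, went in opposite directions as Kdr and Flt1 did. Nrp1, found in endothelium and in neurons, was at 72.8 CPM in both wildtype libraries and at 49.3 and 43.7 CPM in the mutant, a log2 fold change of -0.65 (SE 0.08, adjusted p = 0.000839). Nrp2 was at 13.8 and 12.5 CPM in wildtype and at 26.5 and 31.0 CPM in the mutant, a log2 fold change of 1.12 (SE 0.12, adjusted p = 0.000316). The log2 ratio of Nrp2 to Nrp1 was -2.40 and -2.54 in wildtype and -0.90 and -0.50 in the mutant.

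Of the angiopoietin ligands and modulators, 5 of 6 were tested, 2 were called higher and none lower. Angpt1, which activates Tek, had a log2 fold change of 0.44 (SE 0.24, adjusted p = 0.235), and Angpt2, its context-dependent antagonist, had 0.23 (SE 0.25, adjusted p = 0.573). Neither ligand passed the test while both receptors did, though the difference between them was not tested. Ptprb (VE-PTP), an endothelial phosphatase that acts on Tek, rose from 5.14 and 4.46 CPM to 11.9 and 11.4 CPM (log2 fold change 1.28, SE 0.15, adjusted p = 0.000481). Angptl4 rose by 0.49 on the log2 scale (adjusted p = 0.0758), and Angptl2 at 0.48 (adjusted p = 0.011) stayed just inside the 1.4-fold limit. Angpt4 had no read in wildtype, 1 and 12 reads in the mutant, and was not tested.

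Most endothelial genes outside the 10 were called higher too. Of 28 other endothelial genes tested, 24 were called higher and none lower, with a median log2 fold change of 0.99. Nos3, the endothelial nitric oxide synthase, rose by 1.43 (adjusted p = 0.00239), Acvrl1, a BMP receptor of endothelium, by 1.36 (adjusted p = 0.00143), and Aplnr, the apelin receptor, by 1.34 (adjusted p = 0.000426), all on the log2 scale. The 4 that were not called had values of 0.35 (Arhgef15), 0.28 (Myct1), 0.10 (Podxl) and -0.01 (S1pr1). Of 17 endothelial transcription factors tested, 12 were called higher and none lower, with a median of 0.96. They included Sox18 (1.52, adjusted p = 0.00752) and Sox7 (1.44, adjusted p = 0.000462), which act in vessel formation, and Lyl1 (1.30, adjusted p = 0.0326), a factor of blood and endothelial cells. The 5 that were not called were the Notch targets Hey1 (-0.18) and Heyl (-0.16) and Lmo2 (0.32), Erg (0.37) and Ets2 (0.38). Of the ETS factors tested, Fli1 and Ets1 rose by 1.11 and 0.94 (adjusted p = 0.00174 and 0.000294), whereas Erg and Ets2 were among those not called.

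Genes of sprouting tip cells and of the blood-retina barrier were also counted. Of 10 tip cell genes, 5 were called higher and 1 lower, with a median of 0.97. Pdgfb, which draws pericytes to new vessels, rose from 3.35 and 3.64 CPM to 8.90 and 9.10 CPM (log2 fold change 1.37, adjusted p = 0.0005). Unc5b, a netrin receptor, rose from 147 and 120 CPM to 258 and 305 CPM (log2 fold change 1.07, adjusted p = 0.00036). In every library Unc5b exceeded the summed CPM of the 9 endothelial genes other than Kdr. Esm1, a secreted proteoglycan, rose by 0.97 (adjusted p = 0.044). Cxcr4, a chemokine receptor also present in neurons, fell from 47.7 and 54.3 CPM to 20.9 and 11.5 CPM (log2 fold change -1.65, adjusted p = 0.00111), and the Notch ligand Dll4, which progenitors also make, had 0.01 (adjusted p = 0.944). Of 15 barrier and Wnt/norrin genes, 4 were called higher, none was called lower and 11 were not called, with a median of 0.12, and Cldn5 stood beside these 11. Fzd4, the norrin receptor, and Gpr124, a Wnt7 coreceptor, rose by 1.10 and 1.18 (adjusted p = 0.000339 and 0.000318). Wnt7b rose by 0.96 (adjusted p = 0.00723). The cells that gave the reads of these tip cell and barrier genes, raised or not, were not determined. The 11 that were not called ranged from -0.50 for Ndp, which encodes norrin, to 0.67 for the transporter Abcb1a. Between them lay the tight junction gene Ocln at 0.58, the Wnt effector Lef1 at 0.43, Lrp6 at 0.12, Tjp1 at 0.08, Tspan12 at 0.05, Lrp5 at -0.01, Reck at -0.06 and the transporters Mfsd2a at -0.08 and Slc2a1 at -0.21. Slc2a1 and Lrp5 are widely expressed outside endothelium.

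All 10 vascular basement membrane genes were called higher, with a median of 1.08, among them Nid1 (2.13, adjusted p = 0.000103), Lamb1 (1.399, adjusted p = 7.7e-05) and Nid2 (1.21, adjusted p = 9.4e-05), which other basement membranes of the eye also contain. Of 12 pericyte and mural genes tested, 9 were called higher and 1 lower, with a median of 0.97. Tagln, of smooth muscle, rose from 1.70 and 1.23 CPM to 13.8 and 19.0 CPM (log2 fold change 3.48, SE 0.23). Acta2 rose by 1.94 (adjusted p = 0.00173) and Cspg4, the NG2 proteoglycan of pericytes, by 1.73 (adjusted p = 0.000152). Vtn, a pericyte gene, fell by 1.23 (adjusted p = 0.00311), and Rgs5 at 0.41 and Myh11 at 0.58 were not called. Of 5 lymphatic endothelial genes tested, 2 were called higher, Flt4 and Prox1 (0.73, adjusted p = 0.0102). Prox1 is also a gene of lens fibres and of retinal neurons.

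**Figure D4:**
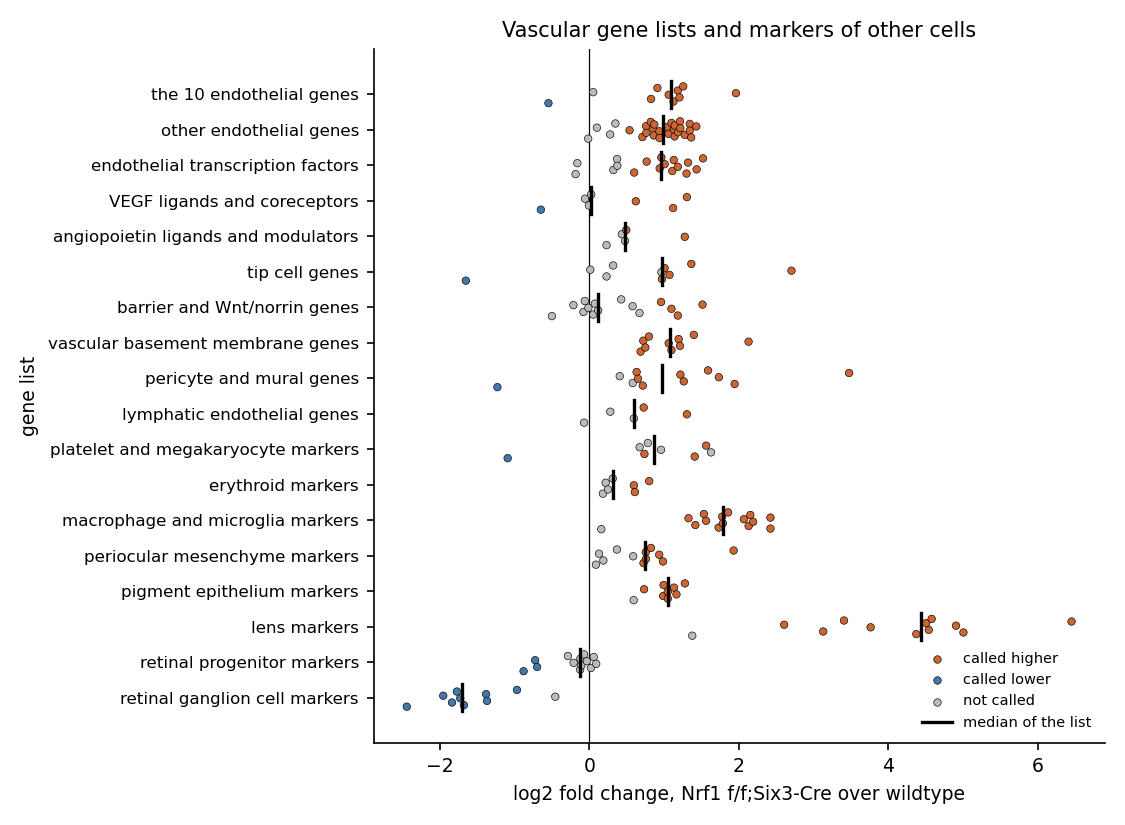
Log2 fold change (Nrf1 f/f;Six3-Cre over wildtype) of each tested gene in 18 lists, 1 row per list, with called genes in colour and a black bar at the median. The vascular lists centre near 1, except the VEGF ligand, angiopoietin ligand, barrier and lymphatic lists, the lens markers lie far to the right at a median of 4.44, and the ganglion cell markers lie to the left at -1.70.

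Markers of other cells that share the dissected tissue or the endothelial genes themselves were read beside these values. All 12 lens markers lay above wildtype in both mutant libraries and 11 were called higher, with a median of 4.44, led by the crystallin Crygs (6.45, from 7 and 2 reads in wildtype) and the fibre cell membrane genes Mip (5.005) and Lim2 (4.91). The lens sum differed between the mutant libraries, at 8893 CPM in replicate 1 and 3636 CPM in replicate 2. Macrophage and microglia markers were called higher in 14 of 15 genes (median 1.79, led by Emr1 and Trem2 at 2.42 each and C1qa at 2.19), with P2ry12 at 0.16 not called. Among the endothelial genes Tek at 1.96 lay above that median and the other 9 below it. The log2 ratio of Cdh5 to the macrophage receptor Csf1r went from -0.13 and -0.20 in wildtype to -0.32 and -0.66 in the mutant. Pigment epithelium markers were called higher in 8 of 9 genes (median 1.05, with Tyrp1 at 1.28, Pmel at 1.17 and Trpm1 at 1.13), and periocular mesenchyme markers in 7 of 12 (median 0.74, with Pdgfra at 1.93, Col3a1 at 0.99 and Foxc1 at 0.94). Mesenchyme markers summed to between 214 and 297 CPM in wildtype and between 384 and 452 CPM in the mutant. The part that these tissues, which carry vessels of their own, have in the endothelial values was not tested.

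Blood cells were considered because Pecam1 and Esam are also genes of platelets. Of 8 platelet and megakaryocyte markers, 3 were called higher and 1 lower, with a median of 0.87 and a sum of 14.1 and 13.7 CPM in wildtype and of 16.2 and 18.7 CPM in the mutant. Gp1bb alone made up 6.54 and 9.36 CPM of that sum in wildtype and 3.70 and 3.76 CPM in the mutant. Without it, a sum formed after its values were seen, the other 7 markers stood at 7.54 and 4.33 CPM in wildtype and at 12.6 and 14.9 CPM in the mutant, 2.32-fold between the means, beside 2.12-fold for the 9 endothelial genes other than Kdr. The part of platelets in the Pecam1 and Esam values was not tested. Itga2b rose by 1.56 (adjusted p = 0.00478), Itgb3 by 1.41 (adjusted p = 0.00556) and Pf4 by 0.74 (adjusted p = 0.164), whereas Gp1bb fell by 1.09 (adjusted p = 0.00538). Of 7 erythroid markers tested, 3 were called higher and none lower, with a median of 0.31. They included Slc4a1 (0.61) and Alas2 (0.60). The erythroid sum was between 570 and 671 CPM in wildtype and between 738 and 742 CPM in the mutant.

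Since Kdr is shared with retinal progenitors, it was set beside their markers. Of 13 progenitor markers, none was called higher and 3 were called lower, with a median of -0.12. The 3 were the cyclin Ccnd1 at -0.88 (adjusted p = 0.000229), the Notch effector Hes5 at -0.72 (adjusted p = 0.00527) and the growth factor Fgf15 at -0.70 (adjusted p = 0.000385). Kdr at -0.55 thus lay between these genes and the list's median. Relative to Ccnd1, which fell further, the log2 ratio of Kdr went from -3.67 and -3.72 in wildtype to -3.27 and -3.45 in the mutant. Endothelial and progenitor reads of Kdr cannot be told apart in these libraries. Retinal ganglion cell markers, read for comparison, were called lower in 9 of 10 genes, with Sncg at -2.44, Nefl at -1.95 and Pou4f1 at -1.84.

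Genes outside the 10 with the most similar profile were found by the root mean square distance of their centred log2 CPM over the 4 libraries to the median profile of the 10 genes, among 11317 genes with a mean of at least 5 CPM. The nearest were Gja1, the gap junction gene connexin 43, at a distance of 0.025, the vascular laminin Lama4 at 0.031, Emilin3 at 0.039, Cpxm1 at 0.041 and Fzd4 at 0.043. Their log2 fold changes lay between 1.05 and 1.10. Within the 10 genes, Pecam1 at 0.036, Flt1 at 0.042 and Esam at 0.045 lay close to that profile, which they helped to set, whereas Tek at 0.444, Cldn5 at 0.534 and Kdr at 0.825 were far from it. With 4 libraries of 2 genotypes such a distance mainly measures the size of the genotype difference.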

How the data were processed

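RNA-seq of E13.5 retinas was read from 2 deposited tables. In the first, the authors mapped reads to mm10 with TopHat2 (version 2.7.2 in the submitters' processing notes) and counted whole reads per gene with HTSeq, so its values are counts, not normalised. In the second the deposited values are normalised log2 levels, for which the notes name DESeq and limma. The strand setting was not given in the sources used here. The 5 HTSeq summary rows, 74.0% to 75.0% of each column, were left out, since they name no gene. Not-unique alignments alone made up 54.6% to 58.0% of each column, so genes with close copies can be undercounted.

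Counts were tested with edgeR 4.0.16 in R 4.3.3 (filterByExpr with a minimum count of 10, TMM scaling, glmQLFit and glmQLFTest, two-sided, Benjamini-Hochberg adjustment over 15762 genes). It took the place of Cuffdiff, which needs aligned reads. The study's thresholds of 1.4-fold and an adjusted p of 0.2 were kept. Standard errors and 95% intervals came from the F statistic. CPM used TMM-scaled library sizes and RPKM the merged exons of GENCODE vM21 (GRCm38), which has the mm10 coordinates. The script was tested on simulated data with 200 changed genes. Replicates differed beyond sampling noise (chi-square per gene 46.7 for wildtype and 58.8 for the mutant), so each counts as 1 sample. The biological coefficient of variation was 12.0%. DESeq2 1.42.0 and limma 3.58.1 served as alternatives.

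The endothelial genes and the lists were chosen with earlier results of these data known. Named were all 10 endothelial genes, all genes of the VEGF and angiopoietin lists, from other lists up to 3 called genes in each direction with a mean of at least 1 CPM, by size of change, and the 5 genes nearest in profile. A few uncalled or widely known list genes (Arhgef15, Myct1, Podxl, S1pr1, the uncalled factors and barrier genes, Rgs5, Myh11, Fli1, Ets1, Dll4, Csf1r, P2ry12) were added after their values were seen. Values of some list genes are not reported here. Ptprb, Flt4 and Angpt2 are each in 2 lists.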

Additional observations from a re-analysis of the deposited data

How the results depend on the processing

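The 8 endothelial genes called higher were called under all 17 alternatives (4 scalings, 2 filters, DESeq2, edgeR's exact test, limma on the deposited log2 values, glmTreat, 2 other thresholds, the block and leaving out each library). Kdr was called lower under 16, while glmTreat against 1.4-fold left 0 endothelial genes called lower. Cldn5 was called under none, and its log2 fold change of 0.05 ranged from -0.016 to 0.13 with 1 library left out, below 0 when wildtype replicate 1 was dropped (-0.016) or when Nrf1-CKO replicate 2 was (-0.015). Dropping the minimum fold reuses the main fit at a looser limit, so that alternative could not lose a call. The log2 ratio of the summed endothelial CPM was 0.16 with Kdr and 1.08 without it. Leaving Gp1bb out of the platelet marker sum, an alternative chosen after seeing the data, moved its log2 ratio from 0.33 to 1.21. Over all genes, 2024 called higher and 1268 called lower became 1188 and 743 with glmTreat, 945 and 723 with limma on the deposited log2 values, and 3211 and 3076 with no minimum fold. Scalings moved the median of all genes by at most 0.04 on the log2 scale.

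The replicate numbers did not pair the libraries (correlation of replicate deviations between genotypes -0.0025). With the replicate number as a block, 1970 genes were called higher and 1256 lower, with 8 and 1 of the endothelial genes, and no endothelial call changed. With 2 libraries a genotype, a difference as small as that of Cldn5 could not be detected, and the interval says how large a change these counts allow.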
